A study of Mus musculus with 8 samples.

Results

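The proximal machinery of the T cell receptor was followed across TNFR2+ and TNFR2- Tregs as a set of 39 genes. They were chosen as a hand-written list of receptor chains, coreceptors, kinases, adaptors, effector enzymes and inhibitors, and all 39 were found among the 20172 genes of the table. All 39 also passed the filter on low values that left 13990 genes for testing, which kept genes averaging at least 10 normalized counts across libraries. The lowest mean of a member was 246 normalized counts, and 24 members were classed as activators, 12 as negative regulators and 3 as genes with both roles.

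RNA was sequenced from CD4 T cells of spleens of female Foxp3 YFP-cre mice, in which the Foxp3 gene drives a yellow fluorescent protein fused to Cre, so that fluorescent cells are regulatory T cells (Tregs). Fluorescent cells were sorted by surface staining for TNFR2, a receptor for tumor necrosis factor, into TNFR2+ Tregs (4 libraries) and TNFR2- Tregs (4 libraries). Both groups carried the same reporter allele, and the labels name neither a stimulation nor an age. The methods of the paper give an age range in weeks and both sexes for its mice in general, without tying them to these libraries. The 4 libraries of a group are not described further as single mice or pools in the labels or methods, so p-values measure the spread between these libraries, which may be technical.

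The T cell receptor recognizes antigen but has no enzyme of its own. The CD3 and zeta chains beside it are phosphorylated by Lck and then bind ZAP-70, which phosphorylates the adaptors LAT and SLP-76, and these gather the enzymes that open the calcium, Ras and NF-kB branches. Phosphatases, ubiquitin ligases, Csk and diacylglycerol kinases restrain each step, and in Tregs receptor signals are needed for suppressive function.

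Estimated depth was between 9104000 and 12130000 reads per library. Tnfrsf1b, the gene of TNFR2, ranged over 1840 to 3148 normalized counts in TNFR2+ Tregs against 1177 to 1563 in TNFR2- Tregs, with every TNFR2+ library above every TNFR2- library. All 7 Treg markers checked were present in every library, and their sum was 23841 to 28602 normalized counts in TNFR2+ Tregs against 16405 to 20799 in TNFR2- Tregs. Of these, Ctla4, Ikzf2, Ikzf4, Tnfrsf18 and Nrp1 were higher in limma. Foxp3 and Il2ra had negative log2 fold changes (-0.23 and -0.34) that did not pass the threshold. For Il2ra every TNFR2+ library was below every TNFR2- library, at 2561 to 3070 against 3219 to 3990 normalized counts. TNFR2- replicate 3 stood apart from the other libraries on the second principal component. Without it, 5 members were higher and 5 were lower past the threshold described next, against 4 and 6 with it.

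Of the 39 genes, 4 were higher in TNFR2+ Tregs (Cd3e, Zap70, Malt1 and Sla) and 6 were lower (Grap2, Prkcq, Sos1, Pag1, Dgka and Themis). The threshold was an adjusted p of 0.05 in limma, a linear model fitted to log2(normalized count + 1) of all 13990 genes. Calls among all tested genes took 7.91%, with 4.52% higher and 3.39% lower (633 and 474 genes). With libraries scaled to equal sums the counts were 834 and 358. Those sums left out mitochondrial genes and the genes Gm26917 and Gm42418. Since no member was expressed at a low level, the share was also taken among the 6266 genes with a mean of at least 200, a limit chosen after the members' means were seen. There it was 12.8%, with 6.5% higher and 6.26% lower, beside 25.6% of the members. The median log2 fold change of the 39 genes was 0.00, against -0.01 over all genes tested, so members called in opposite directions stood around a middle at no difference. In 14 of the 39 genes no library of one group overlapped the other group, while this held for 15.4% of all tested genes and for 21.4% of the 6266 more abundant ones.

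In RNA of sorted populations, fewer cells of a type and less RNA per cell cannot be told apart. Summed B cell markers (11 of 15 in the table) came to 4817 to 6983 normalized counts in TNFR2+ Tregs against 2005 to 3310 in TNFR2- Tregs, most of it Ighm and Cd74. Of these markers 4 (Ighm, Cd74, Cd22 and H2-Aa) had every TNFR2+ library above every TNFR2- library, of which Ighm and Cd74 passed the threshold, and H2-Aa was at 0 in all TNFR2- libraries. Cd79a lay between 0 and 6.1 in all 8 libraries, Ms4a1 had a log2 fold change of 0.26, and Ebf1 had -0.43, neither past the threshold. Summed myeloid markers (9 of 15) ranged from 776 to 1252 and from 486 to 820, cytotoxic lymphocyte markers (7 of 10) from 148 to 236 and from 104 to 170, and erythroid or platelet markers (2 of 9) from 12.2 to 221 and from 41.9 to 178. Among them Cybb (552 to 930 against 118 to 339 normalized counts) and Nkg7 (49.2 to 92.3 against 2.03 to 18.4) were higher, and Xcr1 (130 to 143 against 193 to 347) was lower. Itgam, with 2.92 to 8.8 against 10.6 to 21.2, did not pass the threshold. The part of these cells in the results was not tested.

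**Figure D1:**
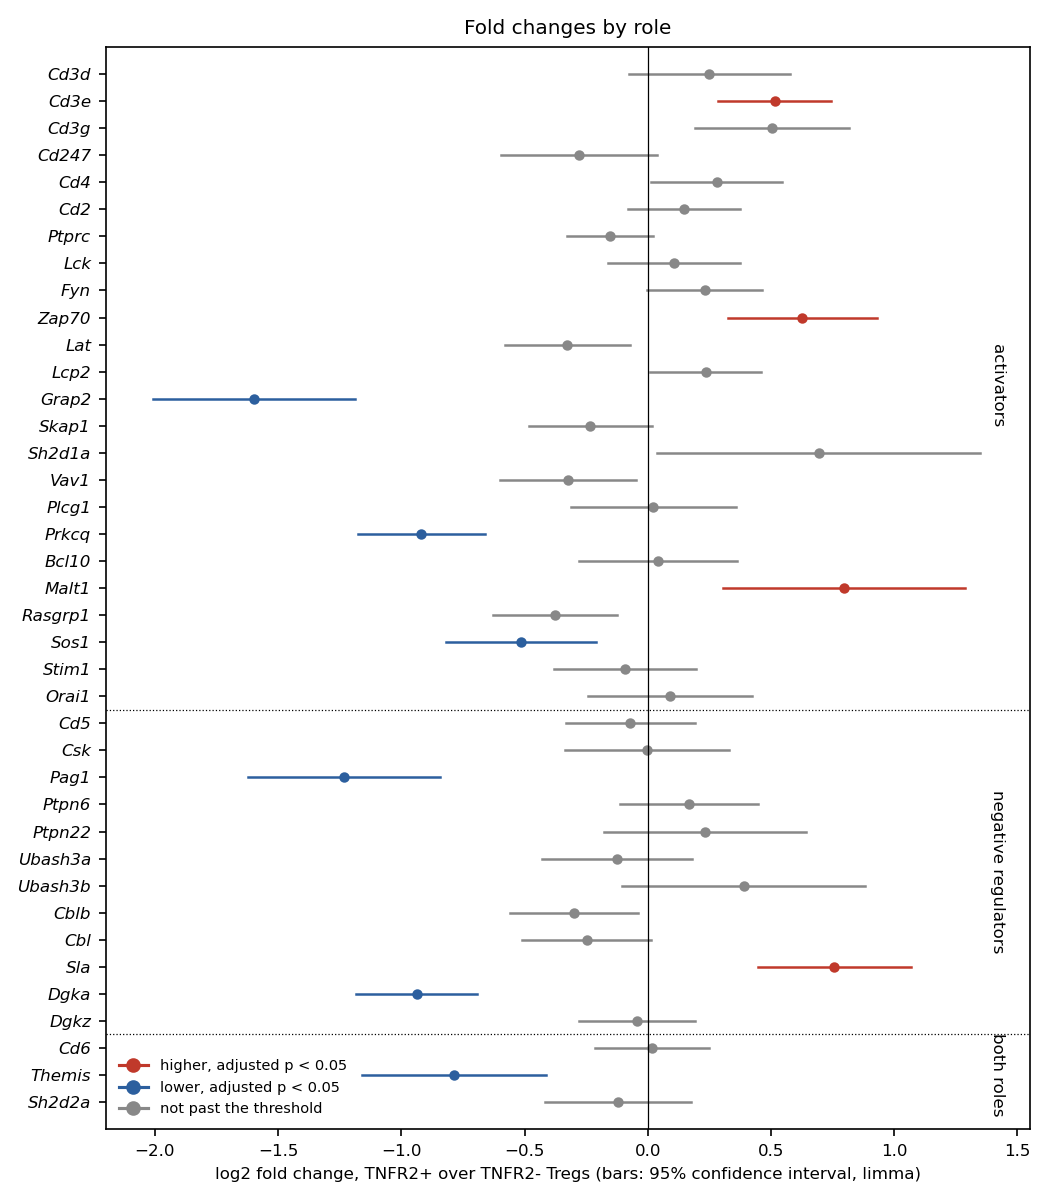
The log2 fold change of each of the 39 genes (horizontal axis, TNFR2+ over TNFR2- Tregs) is plotted with its 95% confidence interval from limma, with the genes ordered by role on the vertical axis. Colored points mark the 4 higher and 6 lower genes, which are spread over activators, negative regulators and genes with both roles.

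The bases upstream of the RefSeq start were read for the 4 receptor chains, because Cd3e, Cd3g and Cd3d are neighbours whose RNAs can be set side by side with that of Cd247 on another chromosome. Zap70 and Grap2 are shown with them as the kinase that rose and the adaptor that fell most. Each is written 5′ to 3′ on the strand of its gene, in GRCm38.p6. The windows are chr9:45009628-45009861 (minus strand, Cd3e), chr9:44980432-44980681 (minus, Cd3g), chr9:44981536-44981785 (plus, Cd3d), chr1:165788431-165788680 (plus, Cd247), chr1:36761548-36761797 (plus, Zap70, a gene with 3 start sites in RefSeq) and chr15:80623233-80623482 (plus, Grap2). The Cd3e window ends where an annotated Cd3e exon begins, the Cd247 window lies over an exon of the noncoding gene Gm16565, and the Grap2 window lies inside the GENCODE span of the gene. Capitals mark matches, on either strand, to the ETS core AGGAAG, the RUNX core TGTGGT, the TCF/LEF core CTTTGA, the E-box CAGGTG and the forkhead core GTAAACA, and no 2 matches overlap in these windows.
Cd3e: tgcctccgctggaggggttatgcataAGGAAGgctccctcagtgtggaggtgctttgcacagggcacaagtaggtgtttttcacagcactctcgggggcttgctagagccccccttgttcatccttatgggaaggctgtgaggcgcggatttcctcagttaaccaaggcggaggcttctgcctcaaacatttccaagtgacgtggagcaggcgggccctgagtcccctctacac
Cd3g: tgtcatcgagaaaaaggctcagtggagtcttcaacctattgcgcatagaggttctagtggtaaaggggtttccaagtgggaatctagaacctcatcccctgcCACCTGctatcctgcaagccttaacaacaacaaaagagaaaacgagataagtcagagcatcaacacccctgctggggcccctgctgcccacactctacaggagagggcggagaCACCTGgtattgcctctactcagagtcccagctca
Cd3d: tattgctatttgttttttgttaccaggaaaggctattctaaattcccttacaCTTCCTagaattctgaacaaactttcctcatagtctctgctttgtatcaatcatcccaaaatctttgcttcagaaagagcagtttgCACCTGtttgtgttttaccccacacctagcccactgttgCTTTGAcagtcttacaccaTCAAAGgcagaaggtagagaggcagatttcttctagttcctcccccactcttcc
Cd247: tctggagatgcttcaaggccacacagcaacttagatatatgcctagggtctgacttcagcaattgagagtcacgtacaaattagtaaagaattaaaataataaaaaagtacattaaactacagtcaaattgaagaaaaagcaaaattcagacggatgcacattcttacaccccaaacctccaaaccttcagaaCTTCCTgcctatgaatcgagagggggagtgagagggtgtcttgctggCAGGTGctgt
Zap70: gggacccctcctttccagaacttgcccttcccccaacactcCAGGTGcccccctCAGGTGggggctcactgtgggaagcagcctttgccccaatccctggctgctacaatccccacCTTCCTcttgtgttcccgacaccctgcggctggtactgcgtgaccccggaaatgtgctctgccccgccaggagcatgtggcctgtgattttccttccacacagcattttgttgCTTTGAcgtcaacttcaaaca
Grap2: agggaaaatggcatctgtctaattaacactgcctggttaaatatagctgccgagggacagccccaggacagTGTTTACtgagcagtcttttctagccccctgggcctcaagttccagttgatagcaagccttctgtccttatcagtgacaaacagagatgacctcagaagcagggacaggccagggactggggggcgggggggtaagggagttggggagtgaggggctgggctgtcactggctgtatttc

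Of the 39 genes, 30 had an entry in the RefSeq table, with 42 windows between them. Each window searched was the 250 bases before the start. The ETS core was in 61.9% of these windows and in 28.4% of the 12175 windows of tested genes. For the E-box the shares were 33.3% and 15.9%, for TCF/LEF 14.3% and 10.7%, for RUNX 9.52% and 11%, and for forkhead 2.38% and 2.28%. These counts describe letters in the windows and not binding.

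Of the 4 receptor chains, 1 was called. Cd3e, which encodes CD3 epsilon (chromosome 9, 44998740 to 45009627, minus strand), was measured at 3614, 3872, 3998 and 3613 normalized counts in TNFR2+ Tregs and at 2567, 2381, 2850 and 2783 in TNFR2- Tregs. Every TNFR2+ library was above every TNFR2- library. The means were 3774 ± 193 (SD, n = 4) and 2645 ± 213 (SD, n = 4), and the log2 fold change was 0.51 with a standard error of 0.11 (limma, adjusted p = 0.00919).

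Cd3g, the gene of CD3 gamma, was measured at 4677, 4938, 5180 and 4120 normalized counts in TNFR2+ Tregs and at 2916, 2667, 3777 and 4150 in TNFR2- Tregs. The groups touched only at replicate 4, where the TNFR2- library was the higher one. Its log2 fold change of 0.50 (SE 0.15) was near that of Cd3e, but the wider spread left it short of the threshold (limma, adjusted p = 0.0514). It passed in 5 of the 8 alternative settings that keep all libraries.

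Cd3d, the gene of CD3 delta, starts 1355 bases from Cd3g on the opposite strand. Its values were 1149, 1208, 1009 and 899 normalized counts in TNFR2+ Tregs and 820, 780, 1040 and 944 in TNFR2- Tregs, so the groups overlapped. The log2 fold change was 0.25 (SE 0.15, limma, adjusted p = 0.355).

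Cd247 encodes the zeta chain, which carries most of the phosphorylation motifs of the receptor. It was measured at 1814, 1828, 2215 and 2039 normalized counts in TNFR2+ Tregs and at 2236, 2184, 2088 and 3178 in TNFR2- Tregs. The log2 difference had the other sign, -0.28 (SE 0.15, limma, adjusted p = 0.278), with TNFR2- replicate 4 far above its group. Cd247 has an annotated antisense neighbour, Pou2f1, that shares transcript sequence with it at 95% identity or more. No such match was found for the CD3 genes, and whether it blurs the level of Cd247 was not tested. The ratio of Cd3e to Cd247 within a library spanned 1.77 to 2.12 in TNFR2+ Tregs, above the 0.876 to 1.36 of TNFR2- Tregs. Per kilobase of transcript, Cd3g was the most abundant chain in both groups at 4623 and 3302 normalized counts, followed by Cd3e at 2582 and 1809, while Cd3d (659 and 554) and Cd247 (667 and 819) were lower.

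Coreceptors and other surface activators were abundant and close to even. Cd4, the coreceptor for MHC class II, had a log2 fold change of 0.28 (limma, adjusted p = 0.192), and Cd2, an adhesion receptor that adds to the receptor signal, had 0.15 (adjusted p = 0.450). Ptprc encodes CD45, the phosphatase that keeps Lck ready to act. It had -0.15 (limma, adjusted p = 0.279), and its libraries did not overlap, with 15232 to 16140 normalized counts in TNFR2+ Tregs against 16880 to 18160 in TNFR2- Tregs. Under quantile normalization the sign of the Ptprc difference turned, to 0.09. None of these 3 genes passed the threshold in limma, and 1 of them, Cd4, had an unadjusted p under 0.05.

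Among the proximal kinases, Zap70 rose. Its product docks on the phosphorylated zeta chain, and the gene lies on chromosome 1, 36761798 to 36782818, plus strand. Libraries held 2234, 1959, 1912 and 1853 normalized counts in TNFR2+ Tregs and 1170, 1145, 1633 and 1243 in TNFR2- Tregs. The groups were apart, with TNFR2- replicate 3 nearest to the TNFR2+ libraries. Means were 1989 ± 169 (SD, n = 4) and 1298 ± 227 (SD, n = 4), a 1.53-fold difference, with a log2 fold change of 0.63 (SE 0.14, limma, adjusted p = 0.0150).

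Lck, the kinase that acts first on the receptor, was measured at 3540, 3237, 4121 and 3304 normalized counts in TNFR2+ Tregs and at 2772, 3225, 3519 and 3684 in TNFR2- Tregs. The groups overlapped, and the log2 fold change of 0.11 (SE 0.12, limma, adjusted p = 0.661) had a 95% confidence interval from -0.16 to 0.37. Fyn, a second kinase of the Src family in T cells, had a log2 fold change of 0.23 (limma, adjusted p = 0.225) and passed the threshold only under quantile normalization among the settings tried (adjusted p = 0.0269). Whether Zap70 and Lck differ from each other in this was not tested.

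**Figure D2:**
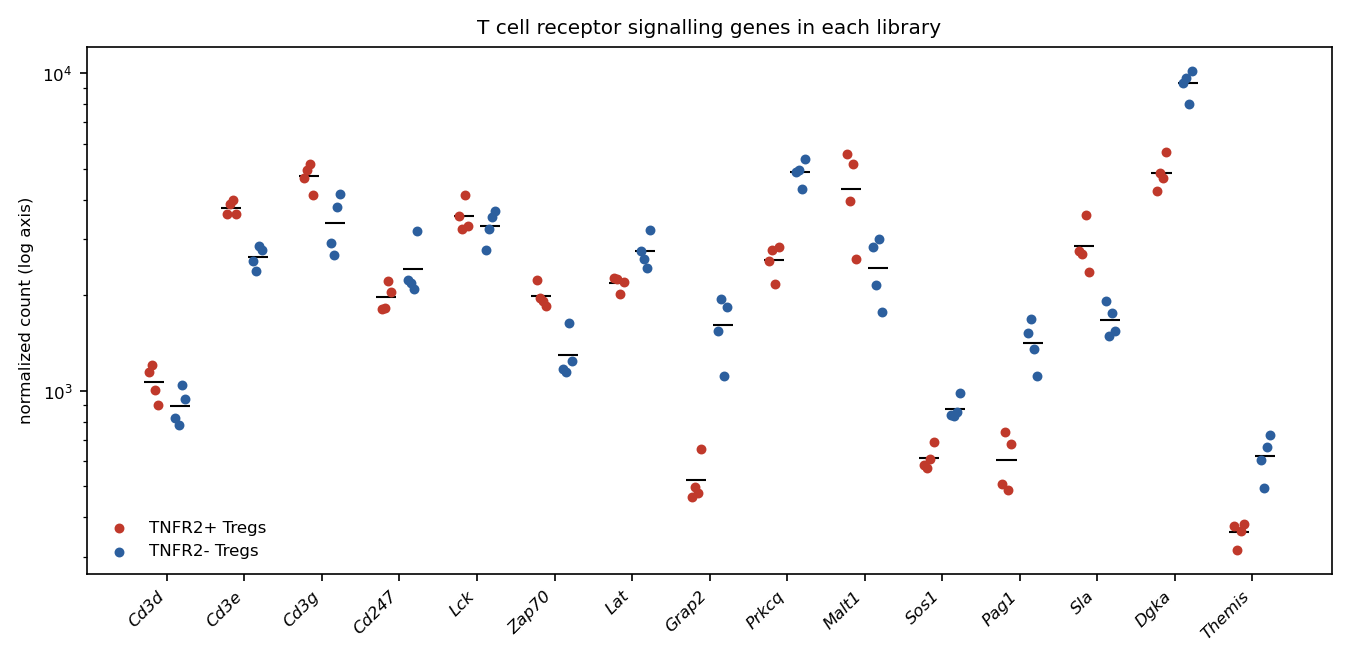
Normalized counts (vertical log axis) of the receptor chains, Lck, Lat and the genes past the threshold are plotted for each library, with TNFR2+ Tregs in red and TNFR2- Tregs in blue and black lines at group means. The points of Grap2, Prkcq, Pag1 and Dgka lie apart by the widest gaps, and those of Malt1, Cd3d, Cd3g, Cd247 and Lck overlap.

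Of the 5 activating adaptors, Grap2 fell, with the largest fitted log2 fold change of the 39 genes, and the other 4 did not pass the threshold. Grap2 encodes GADS, which links SLP-76 to LAT (chromosome 15, 80572594 to 80652854, plus strand). Its values were 462, 499, 478 and 656 normalized counts in TNFR2+ Tregs and 1540, 1943, 1115 and 1831 in TNFR2- Tregs. The lowest TNFR2- library was still well above the highest TNFR2+ library. Means were 524 ± 89.7 (SD, n = 4) and 1607 ± 369 (SD, n = 4), so Grap2 was 3.07-fold lower in TNFR2+ Tregs, with a log2 fold change of -1.60 (SE 0.19, limma, adjusted p = 4.86e-04).

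Neither of the genes whose proteins GADS joins passed the threshold. Lat was measured at 2257, 2255, 2019 and 2195 normalized counts in TNFR2+ Tregs and at 2759, 2600, 2428 and 3206 in TNFR2- Tregs. Its groups did not overlap, and the log2 fold change of -0.33 (SE 0.12) did not pass the threshold (limma, adjusted p = 0.111). Lcp2, the gene of SLP-76, had 0.23 (limma, adjusted p = 0.198), Skap1, an adaptor for integrin activation, had -0.23 (adjusted p = 0.250) and Sh2d1a, the adaptor SAP of the SLAM receptors, had 0.70 (adjusted p = 0.190). Sh2d1a was the least expressed of the 39 genes, with 256 to 357 normalized counts in TNFR2+ Tregs against 100 to 303 in TNFR2- Tregs.

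Of the 9 effector enzymes and channels, Malt1 rose and Prkcq and Sos1 fell. Prkcq encodes protein kinase C theta, which carries the signal of diacylglycerol towards NF-kB (chromosome 2, 11172108 to 11301222, plus strand). The 8 libraries gave 2570, 2772, 2167 and 2839 normalized counts in TNFR2+ Tregs and 4875, 4949, 4316 and 5377 in TNFR2- Tregs. All TNFR2+ libraries lay far below all TNFR2- libraries. Means were 2587 ± 302 (SD, n = 4) and 4879 ± 436 (SD, n = 4), a 1.89-fold decrease, with a log2 fold change of -0.92 (SE 0.12, limma, adjusted p = 6.10e-04).

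Malt1, a protease that acts in NF-kB activation, went the other way but with a wide spread. It was measured at 5559, 3963, 5171 and 2603 normalized counts in TNFR2+ Tregs and at 2838, 2153, 3001 and 1771 in TNFR2- Tregs. TNFR2+ replicate 4 fell within the range of TNFR2- Tregs, so the groups overlapped. The log2 fold change was 0.80 (SE 0.23, limma, adjusted p = 0.0487), whereas the exact two-sided permutation test over the 70 relabellings gave p = 0.0857. Malt1 kept its call in 6 of the 8 alternative settings and in 2 of the 8 fits that leave out a library. Over the 8 settings its adjusted p in limma ran from 0.00185, with replicate number as a block, to 0.177, without an intensity trend. Bcl10, an adaptor that binds MALT1, had 0.04 (limma, adjusted p = 0.906).

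Sos1, an exchange factor that loads Ras with GTP (chromosome 17, 80393751 to 80480453, minus strand), was measured at 585, 571, 611 and 692 normalized counts in TNFR2+ Tregs and at 836, 835, 856 and 983 in TNFR2- Tregs. The groups were apart, but the difference was modest, with a log2 fold change of -0.51 (SE 0.14, limma, adjusted p = 0.0411), and it was called in 1 of the 8 fits without a library. Rasgrp1, the exchange factor that answers to diacylglycerol, also had no overlap, at 1899 to 2427 against 2568 to 3034 normalized counts, and its log2 fold change was -0.38 (limma, adjusted p = 0.0672). Vav1, an exchange factor that acts on the actin cytoskeleton, had -0.32 (adjusted p = 0.144). Plcg1, which makes diacylglycerol and the calcium messenger, had 0.02 (adjusted p = 0.955), Stim1, the calcium sensor of the endoplasmic reticulum, had -0.09 (adjusted p = 0.740) and Orai1, the channel it opens, had 0.09 (adjusted p = 0.780).

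Of the 12 negative regulators, Pag1 and Dgka were lower and Sla was higher. Pag1 encodes a membrane anchor that holds the inhibitory kinase Csk near Lck (chromosome 3, 9687479 to 9833679, minus strand). Its values were 510, 741, 487 and 682 normalized counts in TNFR2+ Tregs and 1517, 1685, 1352 and 1115 in TNFR2- Tregs. No libraries overlapped. Means were 605 ± 125 (SD, n = 4) and 1417 ± 243 (SD, n = 4), so Pag1 was 2.34-fold lower, with a log2 fold change of -1.23 (SE 0.18, limma, adjusted p = 0.00120). Csk itself had a log2 fold change of 0.00 with a 95% confidence interval from -0.33 to 0.33 (limma, adjusted p = 0.995).

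Dgka encodes diacylglycerol kinase alpha, which removes the diacylglycerol that RasGRP1 and protein kinase C theta need (chromosome 10, 128720134 to 128744855, minus strand). Normalized values were 4250, 4860, 4671 and 5626 in TNFR2+ Tregs and 9299, 9663, 8017 and 10159 in TNFR2- Tregs. Each TNFR2- library was above each TNFR2+ library. Means were 4852 ± 576 (SD, n = 4) and 9285 ± 916 (SD, n = 4), a 1.91-fold decrease, with a log2 fold change of -0.94 (SE 0.11, limma, adjusted p = 4.94e-04). Dgkz, the zeta enzyme with the same activity, had -0.04 (limma, adjusted p = 0.861), with a 95% confidence interval from -0.28 to 0.19. The ratio of Dgka to Dgkz within a library spanned 0.799 to 1.15 in TNFR2+ Tregs, below the 1.67 to 2.14 of TNFR2- Tregs.

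Sla encodes SLAP, an adaptor that brings the ubiquitin ligase Cbl to the zeta chain (chromosome 15, 66780819 to 66831829, minus strand). It was measured at 2761, 2698, 3573 and 2366 normalized counts in TNFR2+ Tregs and at 1923, 1485, 1752 and 1541 in TNFR2- Tregs. The groups were apart, with TNFR2+ replicate 3 the highest. Means were 2849 ± 513 (SD, n = 4) and 1675 ± 201 (SD, n = 4), a 1.70-fold rise, with a log2 fold change of 0.76 (SE 0.14, limma, adjusted p = 0.00605). The ligases showed values of the other sign, with -0.30 for Cblb (limma, adjusted p = 0.154) and -0.25 for Cbl (adjusted p = 0.246), neither past the threshold.

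None of the 4 inhibitory phosphatases passed the threshold in limma, and 0 had an unadjusted p under 0.05. Their log2 fold changes were 0.17 for Ptpn6, the gene of SHP-1, 0.23 for Ptpn22, which acts on Lck and ZAP-70, -0.12 for Ubash3a and 0.39 for Ubash3b, and adjusted p-values lay between 0.340 and 0.657. The inhibitory receptor gene Cd5 had -0.07 (limma, adjusted p = 0.785).

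Of the 3 genes for which both roles have been described, Themis fell. It encodes an adaptor best known from thymocyte selection (chromosome 10, 28668360 to 28883818, plus strand), and was measured at 375, 315, 362 and 380 normalized counts in TNFR2+ Tregs and at 605, 494, 665 and 727 in TNFR2- Tregs. The groups did not overlap, and the log2 fold change was -0.79 (SE 0.17, limma, adjusted p = 0.0140). The surface receptor Cd6 had 0.02 (limma, adjusted p = 0.947) and Sh2d2a, an adaptor that binds Lck, had -0.12 (adjusted p = 0.657).

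**Figure D3:**
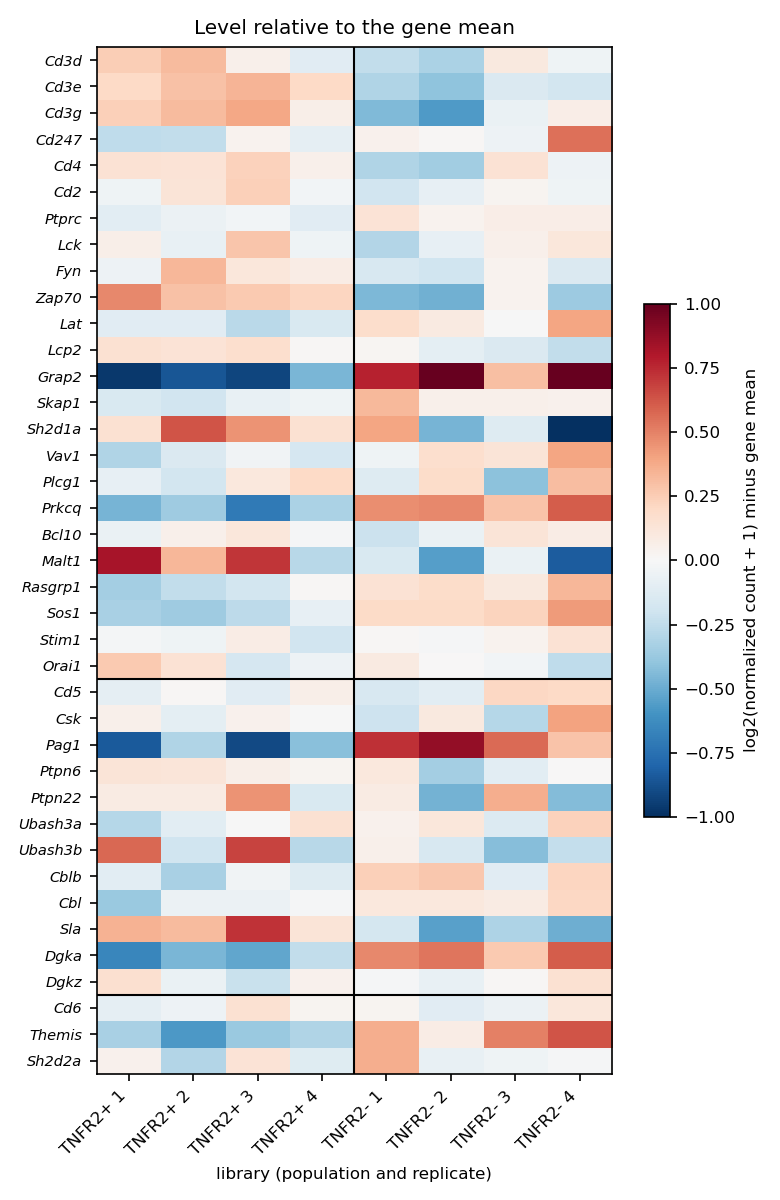
Each row is 1 of the 39 genes and each column 1 library, and color gives log2(normalized count + 1) minus the mean of the gene over the 8 libraries, with black lines between groups and between activators, negative regulators and genes with both roles. Grap2, Pag1, Dgka and Prkcq are blue in every TNFR2+ library and red in every TNFR2- library, while most rows show no such split.

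Activators and negative regulators were then set against each other. Among the 24 activators, 3 were higher and 3 lower, with a median log2 fold change of 0.07. Of the 12 negative regulators, 1 was higher and 2 were lower, with a median of -0.06. The mean log2 value of the activators was 10.94 to 11.03 in TNFR2+ libraries and 10.94 to 11.04 in TNFR2- libraries, so the class as a whole was level. The negative regulators averaged 10.83 to 10.93 in TNFR2+ libraries against 10.93 to 11.03 in TNFR2- libraries, ranges that met at their edges without overlap.

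Activators minus negative regulators gave 0.09 to 0.17 on the log2 scale in TNFR2+ libraries and -0.04 to 0.09 in TNFR2- libraries. Classes were also averaged without the 2 members of each that fell most, a step chosen after their values were seen and one that moves the means by construction. Without Pag1 and Dgka, activators minus negative regulators gave 0.03 to 0.18 in TNFR2+ libraries and 0.13 to 0.24 in TNFR2- libraries, so the order of the group means turned (0.0976 ± 0.0666 and 0.185 ± 0.0478, SD, n = 4). Without Grap2 and Prkcq as well, it gave 0.12 to 0.26 and 0.09 to 0.23, with means of 0.171 ± 0.059 and 0.145 ± 0.0624 (SD, n = 4). The median of the negative regulators also turned positive under quantile normalization (0.05) and under scaling to library sums (0.03).

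**Figure D4:**
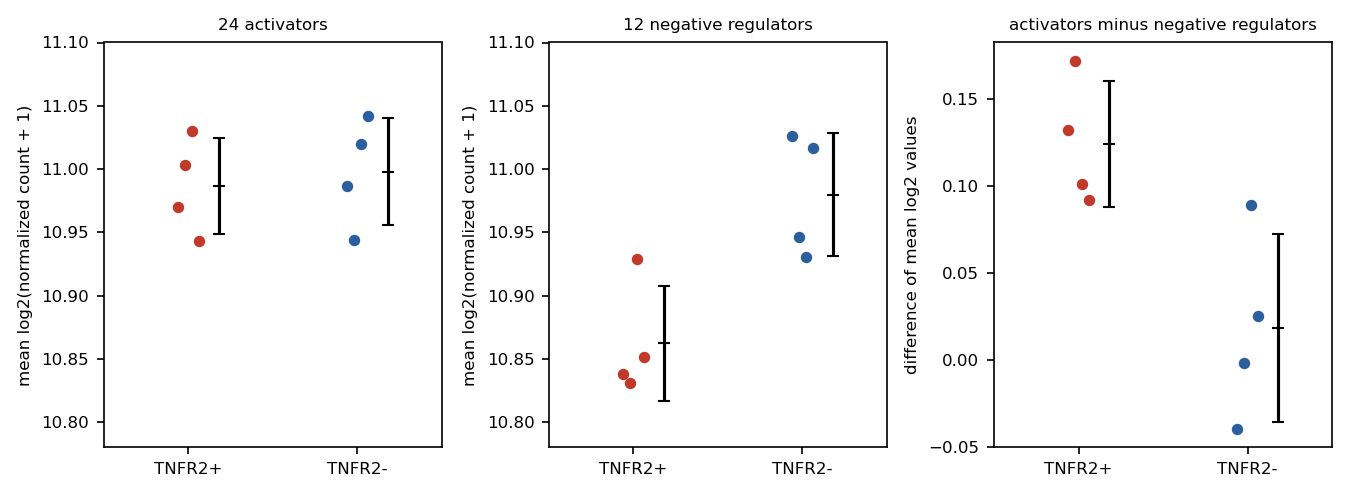
Points are libraries, and the bar beside them is the group mean ± SD (n = 4). The left and middle panels give the mean log2(normalized count + 1) of 24 activators and of 12 negative regulators, and the right panel gives their difference, which is 0.09 to 0.17 in TNFR2+ Tregs against -0.04 to 0.09 in TNFR2- Tregs.

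The calls were not equally firm. Grap2, Prkcq, Pag1 and Dgka passed the threshold in all 8 alternative settings and in all 8 fits that leave out a library. Cd3e and Sla passed without any 1 library, and in 7 of the 8 alternatives. When the variances were moderated without an intensity trend, 0 of the 39 genes were called higher and 4 lower in limma, with 5 and 7 at an unadjusted p under 0.05, and adjusted p-values were 0.0863 for Cd3e, 0.0884 for Zap70, 0.0670 for Sla, 0.177 for Malt1, 0.0954 for Sos1 and 0.0529 for Themis. Zap70 lost its call without TNFR2+ replicate 1 (adjusted p = 0.0537) and without TNFR2- replicate 2 (0.0512). Themis lost its call without TNFR2+ replicate 2 (adjusted p = 0.0524). For each of the 10 genes except Malt1, the exact two-sided permutation test gave p = 0.0286, the smallest that 4 libraries against 4 allow. Any gene whose groups do not overlap gets this value, so it is no check beyond the lack of overlap.

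Beyond the 39 genes, 57 other genes of the pathway were tested as a hand-written list, with a median log2 fold change of -0.06. Of these, 4 were higher and 8 were lower, or 21.1%, beside 7.91% of all genes tested (4.52% higher and 3.39% lower). In 15 of the 57 no library of one group overlapped the other group, against 15.4% of all genes tested. Among the genes called, those with the largest rises were Nfatc1, the calcium-regulated transcription factor (1.10, limma, adjusted p = 0.00253), the inhibitory adaptor Lax1 (0.75, adjusted p = 0.0107) and Wipf1, which steers actin assembly (0.45, adjusted p = 0.0485). The largest falls among the genes called were Txk, a Tec family kinase (-1.71, limma, adjusted p = 4.96e-04), the calcium release channel Itpr3 (-0.64, adjusted p = 0.00583) and Ikbkb, a kinase of the NF-kB branch (-0.61, adjusted p = 0.0417). Txk was measured at 232 to 294 normalized counts in TNFR2+ Tregs and at 600 to 1201 in TNFR2- Tregs. By branch, the proximal kinases and adaptors had 0 higher and 3 lower of 11, with 1 and 4 at an unadjusted p under 0.05 in limma. Calcium and NFAT genes had 1 higher and 1 lower of 12. PI3K and actin genes had 1 and 1 of 8, and the other negative regulators 2 and 1 of 12. None of the 8 Ras and MAPK genes passed in limma, and at an unadjusted p under 0.05 there was 1 in each direction. Without the intensity trend 1 gene of this list, a lower one, was past the threshold.

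**Figure D5:**
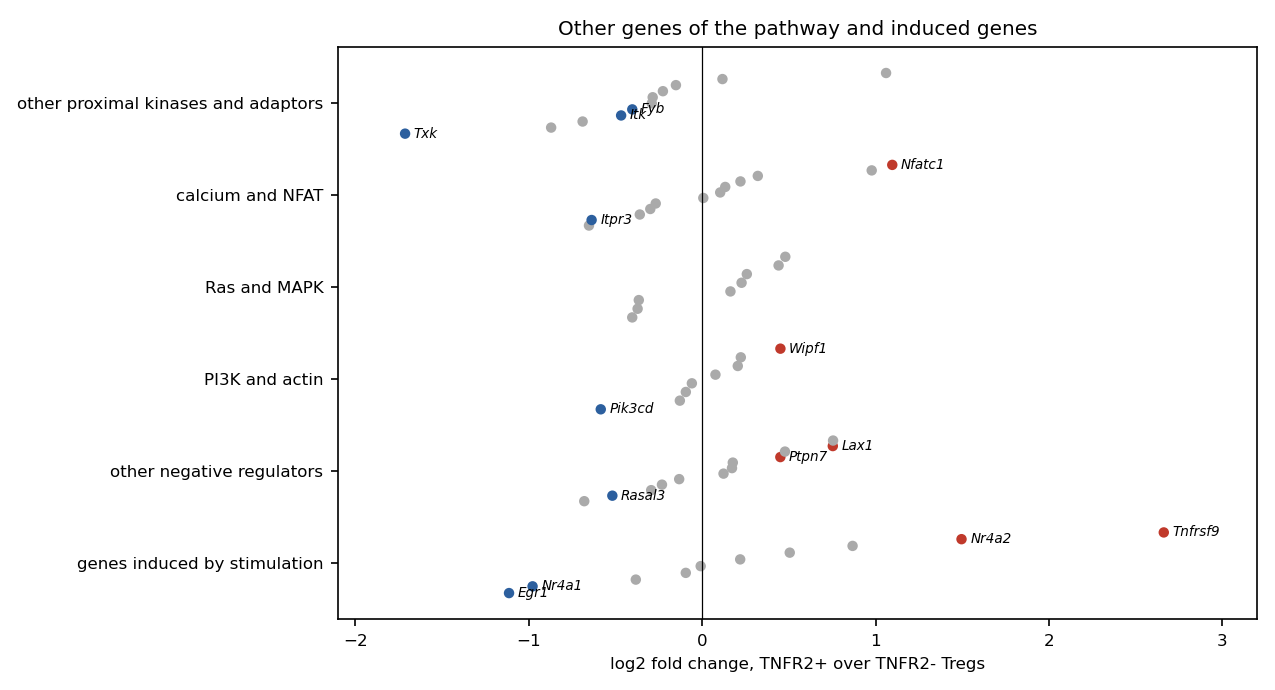
Each point is a gene, placed by its log2 fold change (horizontal axis, TNFR2+ over TNFR2- Tregs) in the row of its branch, for the branches described here, with named red points higher and named blue points lower past the threshold. Among named points the proximal kinases and adaptors hold blue ones only, and the induced genes range from Egr1 at -1.11 to Tnfrsf9 at 2.66.

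Of 10 genes that receptor stimulation is known to induce, 2 were higher and 2 were lower, with a median of 0.11. These calls made up 40% of the list, beside 7.91% of all genes tested. In 7 of the 10 no library of one group overlapped the other group, against 15.4% of all genes tested. Tnfrsf9, a costimulatory receptor, had the largest rise, at 1234, 1797, 1542 and 1073 normalized counts in TNFR2+ Tregs against 339, 116, 335 and 171 in TNFR2- Tregs (log2 fold change 2.66, limma, adjusted p = 4.70e-04), and Nr4a2 was 2.68-fold higher (adjusted p = 0.00253). The immediate early genes Egr1 and Nr4a1 fell, by 1.11 (limma, adjusted p = 4.94e-04) and 0.98 (adjusted p = 5.87e-04) on the log2 scale. Nr4a1 was measured at 2935 to 4051 normalized counts in TNFR2+ Tregs and at 5667 to 7438 in TNFR2- Tregs, whereas Nr4a3 had -0.01 (adjusted p = 0.977). The 3 members of the Nr4a family therefore stood at a rise, a fall and no difference beyond the spread.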

How the data were processed

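RNA of sorted TNFR2+ and TNFR2- Tregs was sequenced from stranded total RNA libraries. The authors trimmed the reads (Trim Galore), estimated abundance with Salmon 1.3.0 on GRCm38 and normalized with DESeq2 1.28 in R 4.0, per the labels. The deposited values are normalized counts per gene, a signal that is not on a log scale, and all 8 columns were matched to samples by name. Low values lay on whole multiples of a step in 71.4% to 94.9% of cases (within 0.1, against 20% by chance), examined in genes with 1 annotated transcript, which gave estimated depths. Whole reads were not recovered for all genes, and no count model was used. Symbols came from GENCODE, where 20008 of 20172 identifiers matched.

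The log2(normalized count + 1) scale was used, which understates changes of low genes. Genes with a mean of at least 10 were tested with limma 3.58.1 in R 4.3.3 (two-sided, intensity trend, Benjamini-Hochberg over all genes), and single genes with an exact permutation test. The procedure was tested on simulated data with the same dispersion in every gene, which is no check of the single calls reported here. The members and lists were chosen with earlier results of these data known. Every member may be named, with full values for those past the threshold and for the receptor chains, Lck, Zap70 and Lat. Of other lists, up to 3 called genes in each direction were taken, and Nr4a3 was added after its value was seen. Results of 1 branch of the pathway list are not reported here, apart from Ikbkb. Near copies were searched with blastn 2.17.0 (95% identity over 50% of a transcript), and none was found for a called member. Alternatives were other pseudocounts (0.5 and 5), filters, scalings, variance moderation, class assignments, a replicate block and leaving out each library. Squared differences between libraries of a group averaged 24.5 to 56.4 times the variance from counting, which covers counting error only.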

Additional observations from a re-analysis of the deposited data

Results flagged for a closer look

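In 6 of 84 sets of 4 libraries, 1 library stood far from the other 3. Chance flags about 1 in 20 such sets. In TNFR2- Tregs, Cd247 was at 3178 normalized counts in replicate 4, against 2088 to 2236 in the others. Sos1 was at 983 in the same library, against 835 to 856. Skap1 reached 2428 in TNFR2- replicate 1, against 1997 to 2012, and Sh2d2a reached 3018 in that library, against 2219 to 2325. Cblb was low in TNFR2- replicate 3, at 2690 against 3380 to 3508. In TNFR2+ Tregs, Cbl was low in replicate 1, at 1303 against 1611 to 1672.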

How the results depend on the processing

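Over 39 genes and 16 alternatives, 570 single-gene values kept their direction and their side of the threshold, 26 lost the call, 9 gained it and 19 turned in sign, all of these 19 for genes that were not called. Without an intensity trend, 465 genes of all tested were called (283 higher, 182 lower), of the members 4 (0 higher), and of the 57 other pathway genes 1 (0 higher, 1 lower). Quantile normalization left 5 lower pathway genes and 5 higher, and scaling to library sums 6 and 5, against 8 and 4. Scaling to library sums moved the split of all calls to 834 higher and 358 lower, against 633 and 474. Leaving out single libraries gave 642 to 1301 calls over all genes (344 to 761 higher, 278 to 540 lower), 2 to 5 higher members, and for the pathway list 6 to 11 calls (2 to 3 higher, 4 to 8 lower). The median of the activators was 0.1246 under quantile normalization, 0.1546 under scaling to library sums, 0.022 with the genes of both roles counted as activators and 0.0041 to 0.1011 without single libraries. For the negative regulators it was 0.0548, 0.0324 and, without single libraries, -0.1012 to -0.007.

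The sign turned for Ptprc (0.0928), Cd5 (0.0396), Csk (0.07) and Dgkz (0.0997) under quantile normalization and for Cd5 (0.0186), Csk (0.0864) and Dgkz (0.0462) under scaling to library sums. Without single libraries, log2 fold changes of both signs were seen for Plcg1 (-0.1103 to 0.1285), Bcl10 (-0.0235 to 0.0903), Csk (-0.0987 to 0.1325), Dgkz (-0.1037 to 0.0235) and Cd6 (-0.0288 to 0.0584). The causes were not tested.

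No pairing of libraries by replicate number was seen, although the check cannot exclude that same-numbered libraries came from the same sort. Correlations of the deviations of same-numbered libraries were 5e-04, -0.0088, -0.0386 and -0.0053, and 0 of 8 libraries correlated best with their own number. With the replicate block, 1183 genes were called, and 9 members, Sos1 being the one lost (limma, adjusted p = 0.0511). The limits set by depth and by the number of libraries were not compared.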
